A study of Mus musculus with 14 samples.

Results

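Notch signalling genes were followed across mouse gallbladder, liver and small intestine and the organoids grown from them. The set held 10 of the 19938 genes measured: the receptors Notch1, Notch2, Notch3 and Notch4, the ligands Jag1, Jag2, Dll1 and Dll4, and the target genes Hes1 and Hey1. Each gene was read from the probe set that carries its symbol alone, and every member had 1 such probe set. The members were chosen with earlier results of these data known. None was lost to a filter, since all genes were tested.

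Notch receptors are membrane proteins that are cut when a ligand on a neighbouring cell binds them. The released intracellular part enters the nucleus, joins the DNA-binding protein RBPJ and a Mastermind coactivator, and switches on genes such as those of the HES and HEY families of transcriptional repressors. In the embryonic liver the ligand Jag1 and the receptor Notch2 are required for bile duct formation. In the small intestine Dll1 and Dll4 on secretory cells keep neighbouring stem and progenitor cells from the secretory fate.

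The measurements come from 14 arrays, 2 for each of 7 groups, all of C57BL/6 material: gallbladder, liver and small intestine tissue, gallbladder, liver and small intestine organoids, and differentiated gallbladder organoids. Organoids are epithelial cultures embedded in Matrigel. Their medium contained EGF, FGF10, HGF, nicotinamide, R-spondin 1, which strengthens Wnt signalling, and noggin, which blocks BMP signalling. For differentiation, gallbladder organoids grew for 2 weeks in medium from which nicotinamide, noggin and R-spondin 1 were left out, so any effect of these 3 factors is measured jointly. The labels give no age of the animals, no passage number and do not say whether the replicates of a group are different mice or different cultures. The p-values therefore measure only the spread between these samples, which may be technical.

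Values are log2 probe set signals. Differences are therefore in log2 units, given with the standard error (SE) from a limma model over all 14 arrays, and a gene was called where its p, adjusted over all 19938 genes, was below 0.05. The median over genes lay between 7.74 and 7.93 on every array, and replicates correlated across genes at 0.965 to 0.998. The median SD of a gene between replicates was 0.0884 in organoids and 0.196 in tissue. The organoids of all origins held the epithelial genes Epcam and Krt19 at 12.34 or more and 13.11 or more. The liver organoids held the hepatocyte gene Alb at only 6.36 and 6.04 and the bile duct gene Krt7 at 13.14 and 13.16. Liver tissue was the reverse, with Alb at 14.34 and 14.35 and Krt19 at 7.29 and 7.41. Liver tissue and liver organoids thus differ in their cell type makeup as well as in culture. Both gallbladder tissue arrays held Alb at 14.30, beside Krt19 at 13.52 and 13.24. Small intestine tissue replicate 2 stood apart by the pancreatic acinar gene Cpa1, at 13.52 against 6.79 in replicate 1. The summed signal of 7 acinar markers was 15.79 on that array and 13.58 and 13.78 in gallbladder tissue, against 9.84 to 10.74 on all others. In gallbladder tissue Ctrb1 read 13.48 and 13.69, while Cpa1 read 6.63 and 6.52. In such bulk RNA, fewer cells of a type and less RNA per cell cannot be told apart.

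Of the receptors, Notch2 separated the organs most widely. It read 10.58 and 10.70 in gallbladder tissue, 10.08 and 10.56 in liver organoids, and 10.27 and 10.33 in differentiated gallbladder organoids. It read 10.22 and 10.07 in liver tissue and 10.15 and 10.09 in gallbladder organoids. In small intestine tissue it read 9.26 and 8.76, and in small intestine organoids 8.92 and 8.90. All arrays of gallbladder and liver origin thus lay above all arrays of the small intestine. Within the former, gallbladder tissue lay just above liver organoids. Liver organoids overlapped differentiated gallbladder organoids, liver tissue and gallbladder organoids. Liver tissue and gallbladder organoids overlapped each other and lay below differentiated gallbladder organoids. Gallbladder organoids exceeded small intestine organoids by 1.21 ± 0.18 (SE, n = 2 and 2, adjusted p = 0.000542), and liver organoids exceeded them by 1.41 ± 0.18 (adjusted p = 0.000222). In tissue, gallbladder and liver also exceeded small intestine, by 1.63 ± 0.18 (adjusted p = 5.93e-05) and 1.14 ± 0.18 (adjusted p = 0.000627). Gallbladder and liver organoids differed by -0.20 ± 0.18 with overlapping arrays (adjusted p = 0.542).

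Notch1 was lower in organoids than in tissue in gallbladder and higher in small intestine. It read 9.80 and 9.89 in gallbladder tissue and 9.05 and 9.01 in gallbladder organoids. In the small intestine it read 9.12 and 8.74 in tissue and 9.85 and 9.76 in organoids. In the liver it read 9.70 and 9.08 in tissue and 9.22 and 9.57 in organoids. Organoids were thus below tissue in gallbladder, above it in small intestine, and overlapping it in liver. The differences were -0.82 ± 0.20 (adjusted p = 0.00733), 0.88 ± 0.20 (adjusted p = 0.00633) and 0.01 ± 0.20 (adjusted p = 0.984). The differentiated gallbladder organoids, at 8.96 and 9.04, overlapped the gallbladder organoids and small intestine tissue.

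Notch3 and Notch4 moved over less than 1 log2 unit between the lowest and the highest group mean, 0.79 for Notch3 and 0.96 for Notch4. Notch4 read 8.65 and 8.48 in liver organoids, 8.39 and 8.25 in liver tissue, and 8.23 and 8.27 in differentiated gallbladder organoids. It read 7.72 and 7.74 in gallbladder organoids, 7.74 and 8.04 in gallbladder tissue, 7.98 and 7.87 in small intestine tissue, and 7.60 and 7.60 in small intestine organoids. Liver organoids lay above all other groups, and gallbladder organoids fell short of them by -0.84 ± 0.12 (adjusted p = 0.00141). For Notch3, liver organoids at 8.43 and 8.34 and gallbladder organoids at 8.24 and 8.23 were the highest groups, and small intestine organoids at 7.52 and 7.66 the lowest. Liver tissue read 7.96 and 8.17, gallbladder tissue 7.90 and 8.15, differentiated gallbladder organoids 7.96 and 7.88, and small intestine tissue 7.71 and 7.78. Liver tissue, gallbladder tissue and differentiated organoids overlapped in Notch3, and gallbladder and liver organoids did not overlap the tissues.

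**Figure D1:**
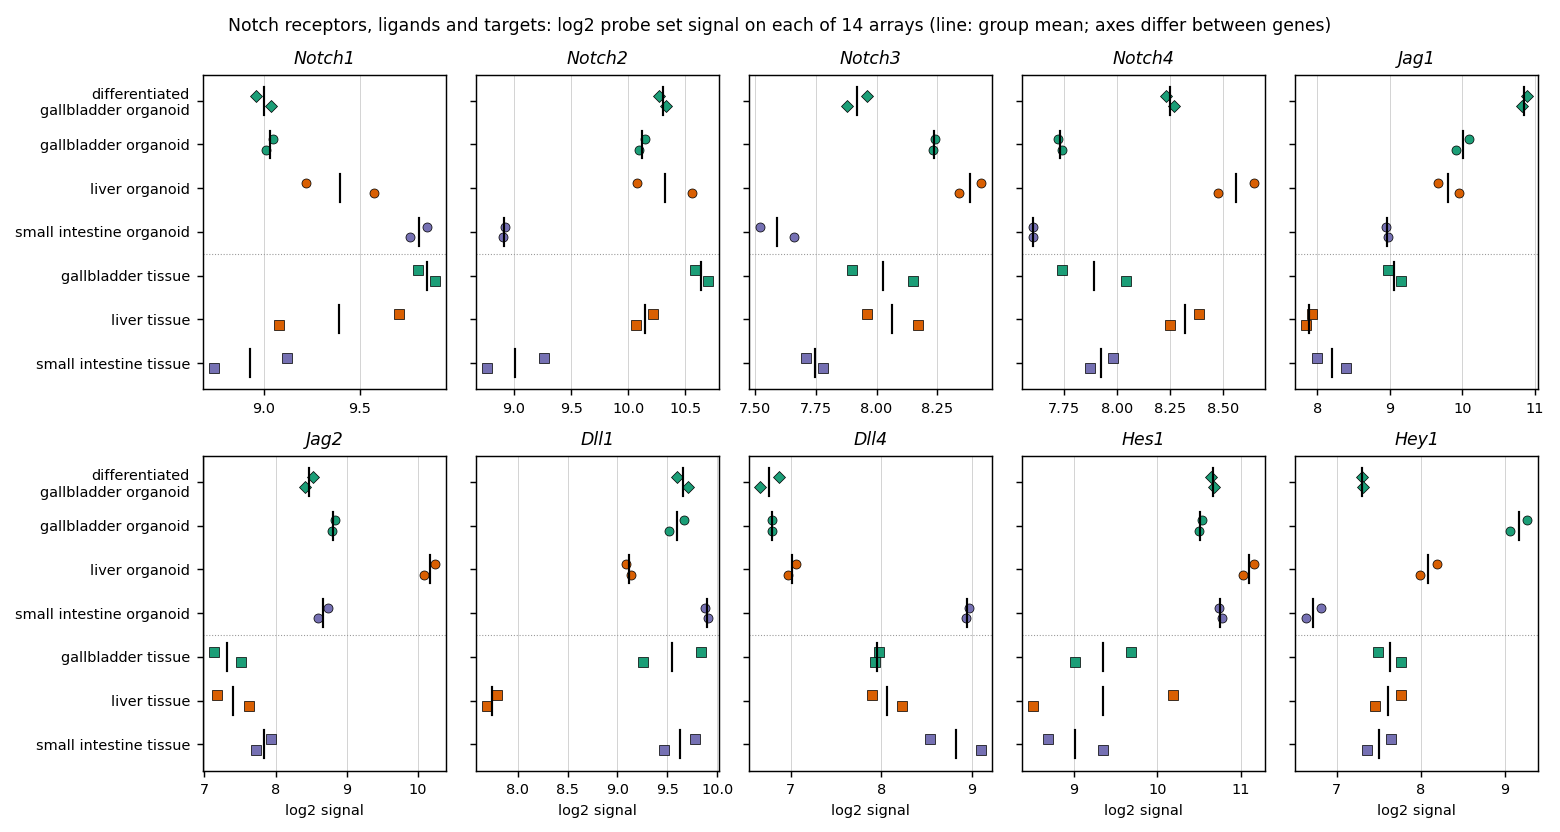
Log2 probe set signal of each of the 10 genes (horizontal axes, one panel per gene, with different ranges) in the 7 groups (vertical axis), with 2 points per group for the arrays and a line at the group mean. Points of Notch2 for gallbladder and liver material lie to the right of both small intestine groups, and the Hes1 tissue points spread widely while its organoid points do not.

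Notch4 and Dll4 are also expressed by endothelium and Notch3 by vascular smooth muscle and pericytes, so markers of these cells were measured on the same arrays. The summed signal of 13 endothelial markers was 10.62 to 10.89 in the organoids, where 2 or 3 markers per group lay below the 25th percentile of both arrays. It was 12.76 and 13.49 in gallbladder tissue, 13.53 and 13.75 in liver tissue, and 11.85 and 12.19 in small intestine tissue, with 0 markers that low. Pecam1, an endothelial adhesion molecule, read 6.16 to 6.48 in organoids and 8.34 to 9.26 in tissue. Notch4 was highest in liver organoids, and among the tissues it was highest in liver, as was the endothelial sum. The part of endothelium in the Notch4 values was not tested. Smooth muscle and pericyte markers summed to 16.02 and 15.65 in gallbladder tissue, 14.60 and 14.40 in small intestine tissue, 12.04 and 11.91 in liver tissue, and 10.26 to 10.57 in organoids. Notch3 was highest in liver organoids, and the part of these cells in its values was not tested.

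**Figure D2:**
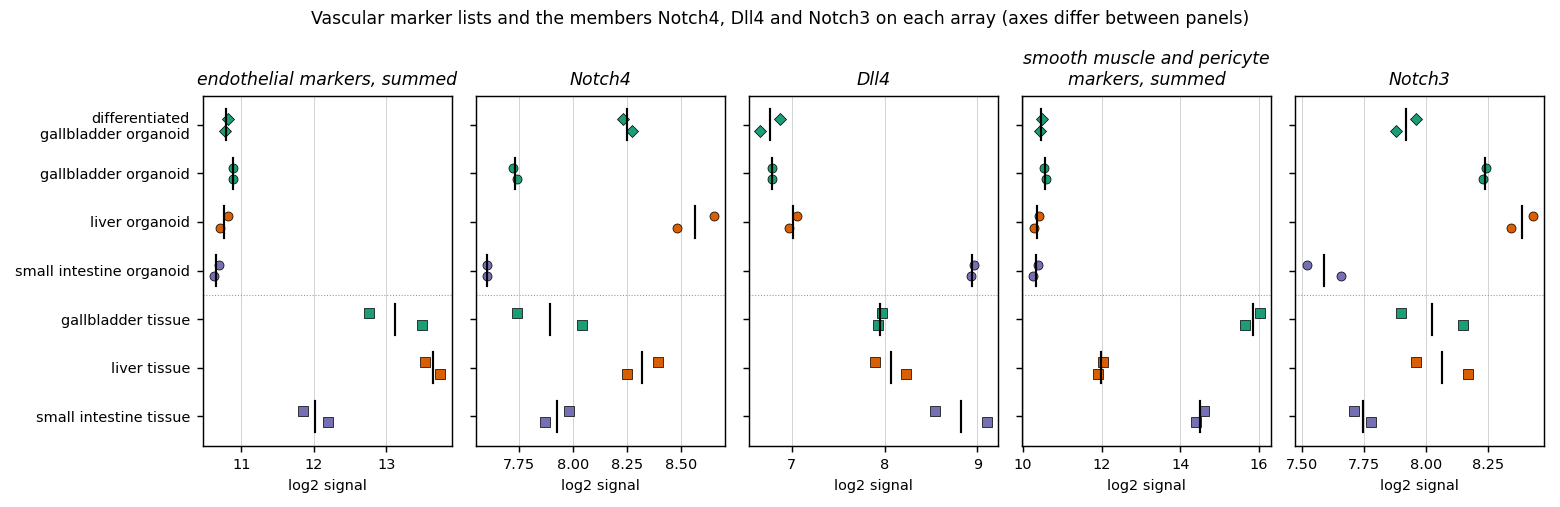
Log2 signal on each array (horizontal axes, ranges differ) of the summed endothelial markers, Notch4, Dll4, the summed smooth muscle and pericyte markers, and Notch3, in the 7 groups (vertical axis), with a line at each group mean. Both marker sums are higher in every tissue than in every organoid group, Dll4 is high in both small intestine groups, and Notch3 and Notch4 are highest in liver organoids.

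Among the ligands, Jag1 and Jag2 were higher in organoids than in tissue in all 3 organs. RefSeq promoter entries on GRCm38.p6 were found for 8 of the 10 genes, Hes1 and Hey1 not among them. The 250 bases before the entry's start are printed for the 3 ligands with the widest range of group means, as context for the differences that follow. Jag1 lies at chr2:137116521-137116770 on the minus strand, Jag2 at chr12:112929496-112929745 on the minus strand, and Dll4 at chr2:119325534-119325783 on the plus strand. The Jag2 entry does not end at the start of the RefSeq gene. Capitals mark a match to a searched motif, and each sequence reads 5′ to 3′ on the strand of its gene.
Jag1: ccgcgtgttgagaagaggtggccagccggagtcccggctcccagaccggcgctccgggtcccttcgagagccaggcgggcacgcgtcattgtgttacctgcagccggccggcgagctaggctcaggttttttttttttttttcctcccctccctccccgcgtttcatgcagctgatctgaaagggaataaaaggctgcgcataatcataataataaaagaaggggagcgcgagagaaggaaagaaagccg
Jag2: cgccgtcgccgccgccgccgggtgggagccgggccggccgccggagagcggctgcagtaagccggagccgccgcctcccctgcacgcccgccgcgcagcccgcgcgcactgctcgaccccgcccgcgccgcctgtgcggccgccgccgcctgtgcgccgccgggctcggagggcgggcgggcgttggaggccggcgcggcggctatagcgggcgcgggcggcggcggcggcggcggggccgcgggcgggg
Dll4: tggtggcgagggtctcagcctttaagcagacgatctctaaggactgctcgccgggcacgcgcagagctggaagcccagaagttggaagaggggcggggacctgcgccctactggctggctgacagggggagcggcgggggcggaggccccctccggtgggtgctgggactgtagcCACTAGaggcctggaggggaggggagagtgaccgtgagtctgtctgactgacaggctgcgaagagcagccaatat
The GC content was 57.2% for Jag1, 87.2% for Jag2 and 65.6% for Dll4, against a median of 52.4% over 32851 promoters. The number of CpG pairs was 20, 54 and 14, against a median of 6. Both strands were searched for the RBPJ core TGGGAA, the TCF/LEF core CTTTGA, the E-box CACGTG, the N-box CACNAG and the TEAD core GGAATG, and no match overlapped another in these windows. Dll4 held 1 N-box, whose first base is 75 bases before the start, and Jag1 and Jag2 held none of these letters in this window. Over all promoters the shares with a match were 21.6%, 13.8%, 6.02%, 36.7% and 12.6% in the same order.

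Jag1, the ligand needed for bile duct formation, was highest in differentiated gallbladder organoids. It read 10.90 and 10.82 there, 10.10 and 9.91 in gallbladder organoids, and 9.66 and 9.96 in liver organoids. It read 8.97 and 9.15 in gallbladder tissue, 8.95 and 8.97 in small intestine organoids, 8.0 and 8.39 in small intestine tissue, and 7.92 and 7.84 in liver tissue. Differentiated organoids stood clear of every other group, gallbladder and liver organoids overlapped, and gallbladder tissue lay next to small intestine organoids. The organoid-tissue difference was 0.94 ± 0.15 in gallbladder (adjusted p = 0.000613), 1.93 ± 0.15 in liver (adjusted p = 3.6e-06) and 0.76 ± 0.15 in small intestine (adjusted p = 0.00254).

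Jag2 was highest in liver organoids, at 10.24 and 10.09. Gallbladder organoids read 8.83 and 8.79, small intestine organoids 8.74 and 8.59, and differentiated gallbladder organoids 8.52 and 8.41. The tissues read 7.93 and 7.73 in small intestine, 7.18 and 7.63 in liver, and 7.13 and 7.51 in gallbladder. All organoid arrays lay above all tissue arrays, and liver and gallbladder tissue overlapped. Liver organoids exceeded liver tissue by 2.76 ± 0.17, which is 6.76-fold (adjusted p = 7.62e-07). Gallbladder organoids exceeded gallbladder tissue by 1.5 ± 0.17 (adjusted p = 7.16e-05), and small intestine organoids exceeded their tissue by 0.83 ± 0.17 (adjusted p = 0.00312).

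Dll1 was set apart by its low reading in liver tissue, at 7.79 and 7.69. It read 9.88 and 9.91 in small intestine organoids, 9.78 and 9.47 in small intestine tissue, and 9.60 and 9.71 in differentiated gallbladder organoids. It read 9.67 and 9.52 in gallbladder organoids, 9.84 and 9.26 in gallbladder tissue, and 9.09 and 9.14 in liver organoids. Gallbladder groups and small intestine tissue overlapped one another, liver organoids lay just below them, and liver tissue lay more than 1 log2 unit lower still. Liver organoids exceeded liver tissue by 1.37 ± 0.18 (adjusted p = 0.000106), while gallbladder tissue exceeded liver tissue by 1.81 ± 0.18 (adjusted p = 3.01e-05). Epithelial genes were also low in liver tissue, where 10 epithelial markers summed to 14.16 and 13.43 against 15.46 to 16.52 on all other arrays, and their part in the result was not tested.

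Dll4, a ligand of both the intestinal epithelium and blood vessels, was highest in the small intestine. It read 8.96 and 8.93 in small intestine organoids and 8.54 and 9.10 in small intestine tissue. It read 7.90 and 8.23 in liver tissue, 7.97 and 7.93 in gallbladder tissue, and 7.06 and 6.97 in liver organoids. Gallbladder organoids read 6.79 and 6.79, and differentiated ones 6.87 and 6.66. Small intestine organoids and tissue overlapped (difference 0.12 ± 0.17, adjusted p = 0.658), whereas organoids lay below tissue in the other organs, by -1.16 ± 0.17 in gallbladder (adjusted p = 0.000435) and -1.05 ± 0.17 in liver (adjusted p = 0.000591). The endothelial marker sums given above were higher in these tissues than in the organoids, and their part in the Dll4 differences was not tested. Between organoids, where those sums spanned 10.62 to 10.89, gallbladder organoids were -2.15 ± 0.17 below small intestine organoids, which is 4.44-fold (adjusted p = 7.49e-06).

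The targets Hes1 and Hey1 did not follow the same order of groups. Hey1 read 9.27 and 9.06 in gallbladder organoids and 8.19 and 7.99 in liver organoids. It read 7.49 and 7.77 in gallbladder tissue, 7.77 and 7.46 in liver tissue, 7.64 and 7.36 in small intestine tissue, 7.30 and 7.31 in differentiated gallbladder organoids, and 6.81 and 6.63 in small intestine organoids. Gallbladder organoids were above every other group, the 3 tissues overlapped, and small intestine organoids were below every other group. Gallbladder organoids exceeded liver organoids by 1.08 ± 0.16 (adjusted p = 0.00181) and small intestine organoids by 2.44 ± 0.16, which is 5.44-fold (adjusted p = 1.51e-06). Against tissue, Hey1 was higher in gallbladder organoids by 1.53 ± 0.16 (adjusted p = 3.57e-05) and lower in small intestine organoids by -0.78 ± 0.16 (adjusted p = 0.00288). In liver it was 0.47 ± 0.16 higher (adjusted p = 0.031). This call was lost under quantile normalisation (adjusted p = 0.0852), after median centring (0.0624) and in a fit to the liver groups alone (0.0661). The liver difference was 0.32 without liver tissue replicate 2 and 0.37 without liver organoid replicate 1.

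Hes1 was steady in culture and variable in tissue. It read 11.16 and 11.03 in liver organoids, 10.74 and 10.77 in small intestine organoids, 10.64 and 10.68 in differentiated gallbladder organoids, and 10.53 and 10.5 in gallbladder organoids. The tissue pairs were 10.19 and 8.51 in liver, 9.68 and 9.02 in gallbladder, and 8.69 and 9.35 in small intestine. All organoid arrays lay above all tissue arrays, and the 3 tissues overlapped. The pooled SD of Hes1 was 0.05 in organoids and 0.78 in tissues. Organoids exceeded tissue by 1.74 ± 0.44 in liver (adjusted p = 0.00814) and by 1.74 ± 0.44 in small intestine (adjusted p = 0.0108). In gallbladder the difference of 1.17 ± 0.44 was not called (adjusted p = 0.0505). It was called after median centring (adjusted p = 0.0481), without the dimmest genes (0.0459) and in a fit to the gallbladder groups alone (0.0309). It was called in only 5 of 14 fits that left out 1 array. Those without a liver tissue array, which enters through the shared error, were among them. The gallbladder difference was 0.84 without gallbladder tissue replicate 2 and 1.5 without replicate 1. Without liver tissue replicate 1 the liver difference was 2.58, and without replicate 2 it was 0.90, called in both cases, but the call was lost in a fit to the liver groups alone (adjusted p = 0.0509). The small intestine call was lost without small intestine tissue replicate 1 (difference 1.41, adjusted p = 0.071) or without organoid replicate 1 (0.0511) or 2 (0.0567). Hes6, another HES family member, was also unequal between the liver tissue arrays, at 9.81 and 11.31.

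Withdrawal of R-spondin 1, noggin and nicotinamide from gallbladder organoids went with lower Hey1 and higher Jag1 and Notch4. Of the 10 members, 2 were higher and 1 lower, where 2.8% of all genes were higher and 1.93% lower, 4.73% in all. Hey1 fell by 1.86 ± 0.16, which is 3.62-fold (n = 2 and 2, adjusted p = 0.000125), to a level overlapping no gallbladder organoid array. Jag1 rose by 0.85 ± 0.15 (adjusted p = 0.00922) and Notch4 by 0.52 ± 0.12 (adjusted p = 0.0311). The Jag1 call was lost without differentiated replicate 1 (adjusted p = 0.0959), differentiated replicate 2 (0.067) or gallbladder organoid replicate 2 (0.103). The Notch4 call was lost without any array of the differentiated, gallbladder or small intestine organoids (highest adjusted p = 0.228), the last of which enter through the shared error. Hey1 stayed called whichever array was left out, at -1.96 to -1.76.

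The remaining 7 members were not called on withdrawal. Hes1, at 0.14 ± 0.44 (adjusted p = 0.939), carried the wide error of its tissue arrays. In a fit to these 2 groups alone, 5 members and 26.8% of all genes were called, Notch3 (adjusted p = 0.0161) and Jag2 (adjusted p = 0.0137) added. Notch3 differed by -0.31 ± 0.12 (adjusted p = 0.194), Jag2 by -0.35 ± 0.17 (adjusted p = 0.354) and Notch2 by 0.18 ± 0.18 (adjusted p = 0.721). Notch1 at -0.02, Dll1 at 0.06 and Dll4 at -0.03 overlapped between the groups. The median of the 10 differences was 0.02, beside -0.04 over all genes.

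**Figure D3:**
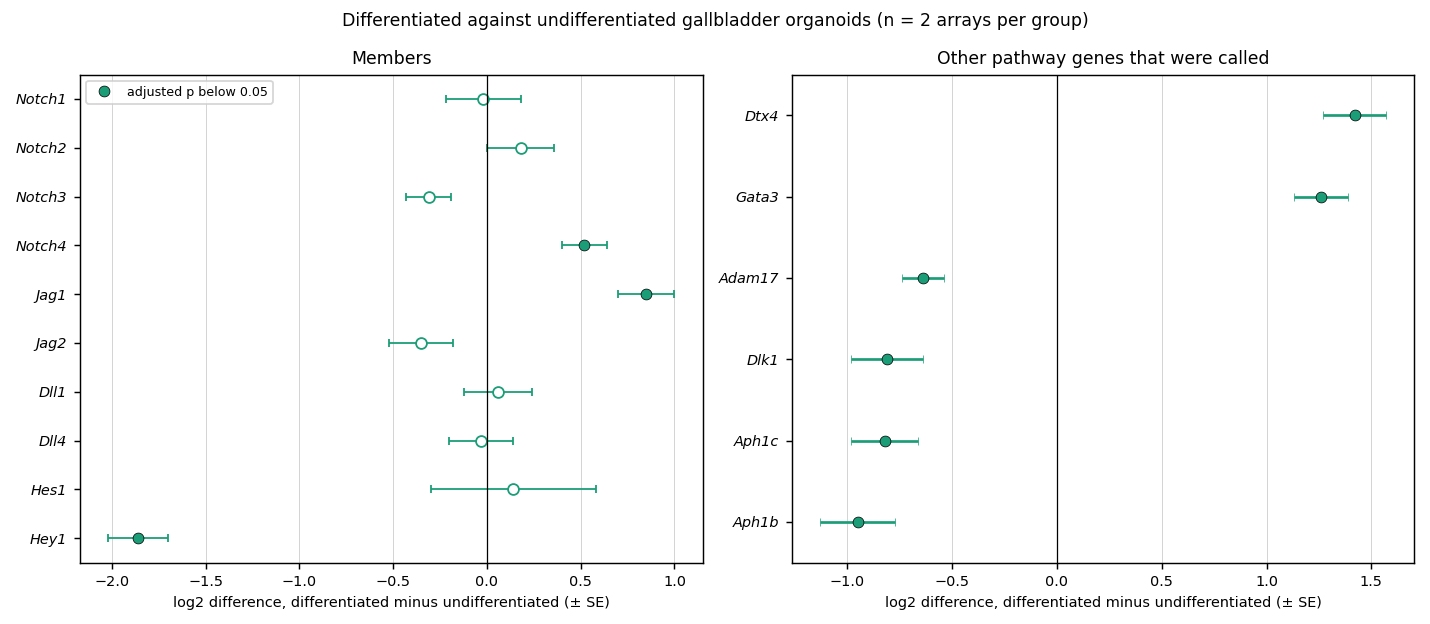
Log2 difference between differentiated and undifferentiated gallbladder organoids (horizontal axes, bars are SE, n = 2 arrays per group) for the 10 members and for the 6 other pathway genes that were called. Filled points were called at an adjusted p below 0.05; Hey1 lies farthest to the left among the members, and Jag1 and Notch4 are the filled points to the right.

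Of 62 other pathway genes measured, 2 were higher and 4 lower after withdrawal, where 2.8% of all genes were higher and 1.93% lower, 4.73% in all. Dtx4, a Deltex family protein that acts on Notch turnover, read 9.77 and 9.64 in differentiated organoids and 8.30 and 8.27 in undifferentiated ones. The groups did not overlap, and Dtx4 rose by 1.42 ± 0.15 (adjusted p = 0.000443). Gata3, a transcription factor gene and Notch target in T cells, read 8.19 and 8.13 against 6.89 and 6.91, a rise of 1.26 ± 0.13 (adjusted p = 0.000329). Adam17, a protease that sheds membrane proteins, fell by 0.64 (adjusted p = 0.00433), and Dlk1, a membrane protein related to the ligands, fell by 0.81 (adjusted p = 0.0265). Aph1b and Aph1c, near-identical copies of a gamma-secretase subunit whose probe sets may share signal, fell by 0.95 and 0.82. Of 10 nuclear complex genes 0 were called by limma, with 1 at an unadjusted p below 0.05, and the same numbers held for 5 genes of Notch glycosylation.

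Between organoids of different organs, the fewest members, and also the smallest share of all genes, were called between gallbladder and liver. Of the members, 1 was higher and 2 lower in gallbladder than in liver organoids, where 6.17% of all genes were higher and 6.52% lower, 12.7% in all. These were Hey1, and Jag2 and Notch4, respectively, with Jag2 at -1.35 ± 0.17 (adjusted p = 0.000828). Dll1 at 0.48 ± 0.18 (adjusted p = 0.105), Hes1 at -0.58 ± 0.44 (adjusted p = 0.446) and Notch1 at -0.37 ± 0.20 (adjusted p = 0.271) were not called, nor were Notch3 at -0.15, Jag1 at 0.19 and Dll4 at -0.22. A fit to these 2 groups alone called 6 members and 35.6% of all genes, Notch1 (adjusted p = 0.0473), Dll1 (adjusted p = 0.00587) and Hes1 (adjusted p = 0.00211) added.

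Against small intestine organoids, 4 members were higher and 2 lower in gallbladder organoids, where 20.2% of all genes were higher and 15.4% lower, 35.6% in all. In liver organoids 6 were higher and 2 lower, where 14.2% of all genes were higher and 12.2% lower, 26.5% in all. Notch2, Notch3, Jag1 and Hey1 were higher and Dll4 was lower in both comparisons, which share the small intestine arrays. Notch3 differed by 0.64 ± 0.12 for gallbladder (adjusted p = 0.00172) and 0.79 ± 0.12 for liver (adjusted p = 0.000518), and Jag1 by 1.05 ± 0.15 (adjusted p = 0.00039) and 0.85 ± 0.15 (adjusted p = 0.0017). Notch1 was lower in gallbladder organoids by -0.78 ± 0.20 (adjusted p = 0.0126), a call lost when any of the 4 arrays compared was left out (highest adjusted p = 0.0707). Liver organoids also exceeded small intestine organoids in Notch4 by 0.96 ± 0.12 and in Jag2 by 1.5 ± 0.17, and fell short in Dll1 by -0.78 ± 0.18 (adjusted p = 0.00724). Dll4 was -1.93 ± 0.17 lower and Hey1 1.37 ± 0.16 higher in liver organoids. Not called were Notch4 at 0.12, Jag2 at 0.15, Dll1 at -0.30 and Hes1 at -0.24 for gallbladder, and Notch1 at -0.41 and Hes1 at 0.34 for liver. A fit to the compared groups alone called Dll1 (adjusted p = 0.0195) and Hes1 (0.0252) for gallbladder, where the share of all genes called rose as well. For liver such a fit called Notch1 (adjusted p = 0.0395) and Hes1 (0.0214). The median of the 10 differences was 0.82 for liver, beside 0.05 over all genes, and 0.14 for gallbladder, beside 0.11.

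**Figure D4:**
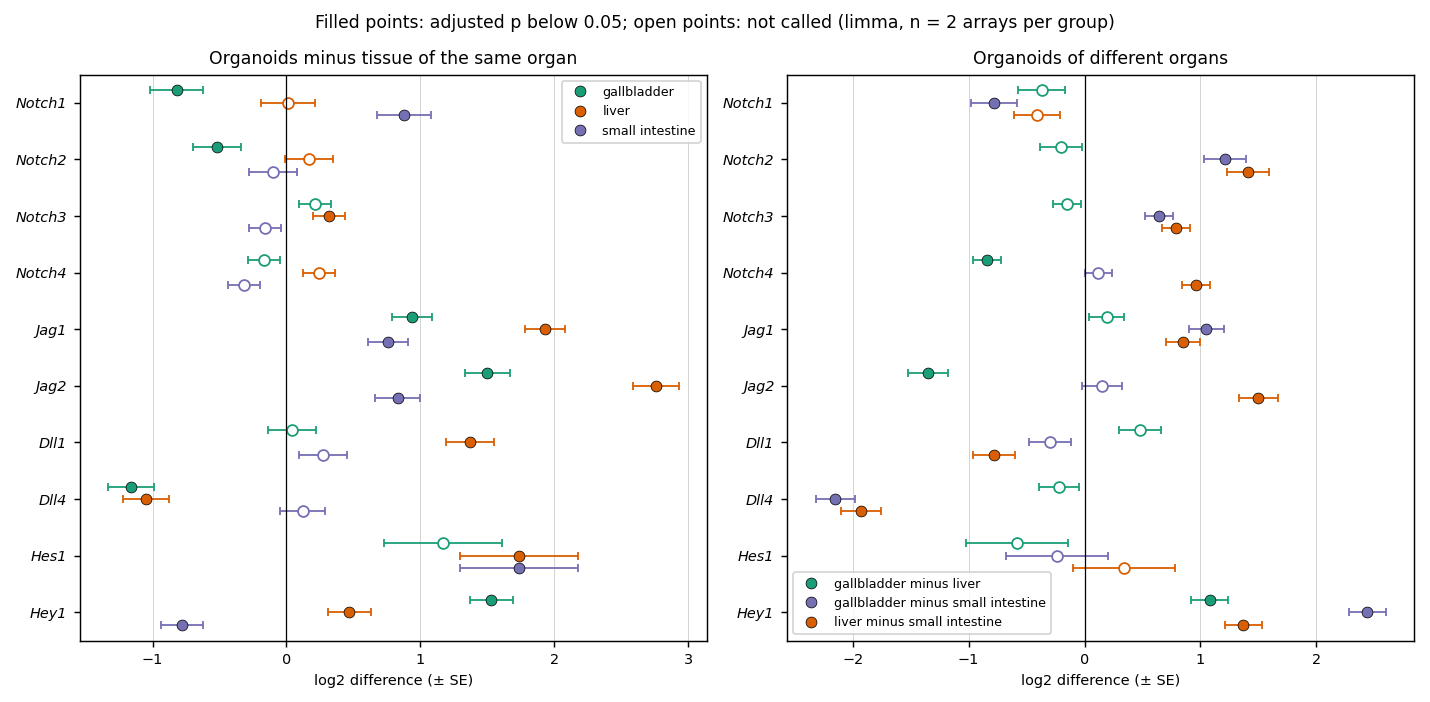
Log2 difference (horizontal axes, bars are SE, n = 2 arrays per group) of each of the 10 members between organoids and tissue of the same organ and between organoids of different organs. Filled points were called at an adjusted p below 0.05; Jag1 and Jag2 lie to the right of 0 in all 3 organs, Notch1 lies on opposite sides in gallbladder and small intestine, and Dll4 lies farthest left where small intestine organoids are the reference.

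A list of 4 genes that Notch holds down in the intestinal secretory lineage was also measured. All 4 were lower in gallbladder and in liver organoids than in small intestine organoids. Of all genes, 15.4% and 12.2% were lower in these comparisons. The part of Notch in these differences was not tested. Atoh1, the transcription factor that starts the secretory lineage, read 10.29 and 10.30 in small intestine organoids and 10.39 and 10.03 in small intestine tissue, and 6.33 to 7.06 in all other groups. Atoh1 fell short by -3.32 in gallbladder organoids (adjusted p = 4.17e-08) and by -3.52 in liver organoids (adjusted p = 3.08e-08). Neurog3, which starts the endocrine lineage, was 2.43 higher in small intestine organoids than in their tissue (adjusted p = 7.72e-05). After withdrawal 0 of these 4 genes were called by limma, and 0 had an unadjusted p below 0.05, while 7 Paneth and goblet cell markers summed to 12.98 and 12.85 in differentiated and 10.16 and 10.34 in undifferentiated gallbladder organoids.

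Maml2, a Mastermind coactivator, separated the groups in another way. It read 11.04 and 11.05 in differentiated gallbladder organoids, 10.89 and 10.77 in gallbladder organoids, 10.34 and 10.59 in liver organoids, and 10.64 and 10.12 in gallbladder tissue. It read 7.64 and 7.58 in liver tissue, 7.72 and 7.10 in small intestine organoids, and 7.83 and 7.75 in small intestine tissue. The 3 gallbladder groups and liver organoids were thus high, and liver tissue was as low as the small intestine. Gallbladder organoids exceeded small intestine organoids by 3.42 (adjusted p = 1.16e-06) and liver organoids exceeded liver tissue by 2.86 (adjusted p = 2.56e-06).

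**Figure D5:**
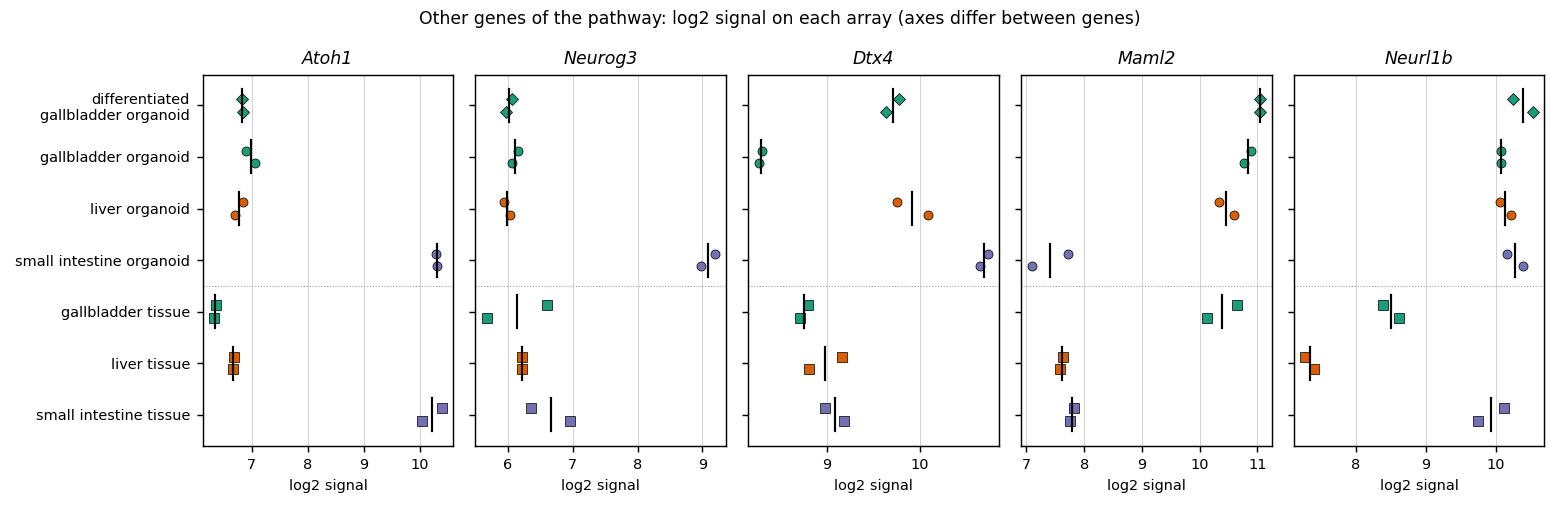
Log2 signal on each array (horizontal axes, ranges differ between genes) of Atoh1, Neurog3, Dtx4, Maml2 and Neurl1b in the 7 groups (vertical axis), with a line at each group mean. Atoh1 is high only in the 2 small intestine groups of those shown, Maml2 is high in gallbladder groups and liver organoids, and Neurl1b is lowest in liver tissue.

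Between organoids and tissue, 6 of the 10 members were called in gallbladder, 7 in liver and 5 in small intestine. In gallbladder 3 were higher and 3 lower in organoids, where 32.7% of all genes were higher and 15.2% lower, 47.9% in all. In liver 6 were higher and 1 lower, where 26.7% of all genes were higher and 18.2% lower, 44.9% in all. In small intestine 4 were higher and 1 lower, where 20.2% of all genes were higher and 15.6% lower, 35.8% in all. Beside these high shares the counts are not read as a result about the members. In fits to the compared groups alone the count fell in liver and rose in gallbladder. Calls not given above were Notch2 in gallbladder, at -0.52 ± 0.18 (adjusted p = 0.0375), and Notch3 in liver, at 0.32 ± 0.12 (adjusted p = 0.0477). The Notch3 call was lost when arrays were centred on their median (adjusted p = 0.105) and the Notch2 call likewise (adjusted p = 0.0606). Small intestine Notch4 differed by -0.32 ± 0.12 (adjusted p = 0.0546) and was called after centring (adjusted p = 0.0471). The other members not called and not given above were Notch3 at 0.21, Notch4 at -0.17 and Dll1 at 0.04 in gallbladder. In liver they were Notch2 at 0.17 and Notch4 at 0.24, and in small intestine Notch2 at -0.10, Notch3 at -0.16 and Dll1 at 0.27. Without the small intestine tissue array that holds Cpa1, the calls of that organ remained, with Notch1 at 0.69 (adjusted p = 0.0464), Jag2 at 0.73 (adjusted p = 0.0216) and Hes1 at 2.07 (adjusted p = 0.0144). Without the other tissue array of that organ the Hes1 call was lost.

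Among the other pathway genes that were called between organoids and tissue, more were higher than lower in gallbladder and liver. Of the 62 measured, 25 were higher and 5 lower in gallbladder, where 32.7% of all genes were higher and 15.2% lower. In liver 29 were higher and 4 lower, where the shares were 26.7% and 18.2%. In small intestine 13 were higher and 12 lower, where they were 20.2% and 15.6%. Their median difference was 0.31, 0.27 and -0.06, beside 0.17, 0.00 and -0.02 over all genes. In liver 9 of 10 nuclear complex genes were higher and 1 lower, led by Maml2 and Maml3 (2.19, adjusted p = 1.52e-05). In gallbladder 6 of 9 genes of gamma-secretase and the sheddases were higher and 0 lower, among them Furin (1.18, adjusted p = 0.00323). In small intestine 0 of these 9 passed, with 1 at an unadjusted p below 0.05. Of 7 further target genes measured, 4 were higher and 1 lower in gallbladder organoids than in tissue. The counts were 5 and 1 in liver and 3 and 2 in small intestine. Sox9, a progenitor transcription factor on this list, was higher in organoids by 2.81, 2.43 and 2.44 in gallbladder, liver and small intestine. Myc, a growth regulator on the list, was higher by 2.65, 3.48 and 2.72 in the same order. Nrarp, a feedback inhibitor induced by Notch, was higher by 1.41, 0.96 and 1.06 in the same order (adjusted p = 0.00102, 0.00823 and 0.00642). Of the 14 inhibitor and turnover genes that include Nrarp, 4 were higher and 3 lower in gallbladder. The counts were 6 and 0 in liver and 2 and 4 in small intestine.

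Some organoid-tissue changes differed between organs when the difference itself was tested. The change of Hey1 was larger in gallbladder than in small intestine by 2.32 (adjusted p = 6.82e-05), where 22.3% of all genes had a larger and 14.3% a smaller change, 36.6% in all. The change of Jag2 was larger in liver than in small intestine by 1.92 (adjusted p = 0.000166), where the shares were 19% and 16.2%, 35.2% in all. That of Jag2 was smaller in gallbladder than in liver by -1.26 (adjusted p = 0.00262), where they were 22.7% and 17.1%, 39.8% in all. In these tests 3, 8 and 5 of the 10 members were called, respectively.

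Among tissues, gallbladder exceeded liver in 3 members and fell short in 1, where 20.7% of all genes were higher and 27.4% lower, 48.1% in all. Of all genes called, 43% were higher in gallbladder tissue, and 32% once arrays were centred on their median, which moved the median of all genes from -0.09 to -0.21. Jag1 was 1.18 ± 0.15 higher (adjusted p = 0.000168) and Notch2 0.50 ± 0.18 higher (adjusted p = 0.0445), and Notch4 was -0.43 ± 0.12 lower (adjusted p = 0.0123). The Notch2 call was lost after centring (0.38, adjusted p = 0.122), in a fit to these 2 groups alone (0.0928), with the replicate block (0.058) and in 10 of 14 fits that left out 1 array. The Notch4 call was lost in the fit to these groups alone (0.157), without liver tissue replicate 1 (0.0666) and without gallbladder tissue replicate 1 (0.0821). Notch1 at 0.46 (adjusted p = 0.0842), Notch3 at -0.04, Jag2 at -0.09, Dll4 at -0.12, Hes1 at 0.00 and Hey1 at 0.01 were not called. Gallbladder exceeded small intestine tissue in Notch1 by 0.92 ± 0.20 (adjusted p = 0.00425), in Notch2, and in Jag1 by 0.87 ± 0.15 (adjusted p = 0.00104), and fell short in Jag2 by -0.51 ± 0.17 and Dll4 by -0.87 ± 0.17. Of all genes, 20.7% were higher and 24.3% lower there, 45% in all. In a fit to these 2 groups alone, the calls of Jag1 (adjusted p = 0.059), Jag2 (0.166) and Dll4 (0.0784) were lost. Notch3 at 0.28 (adjusted p = 0.0729), Notch4 at -0.03, Dll1 at -0.07, Hes1 at 0.33 and Hey1 at 0.13 were not called. Liver tissue exceeded small intestine tissue in Notch2 and in Notch4 by 0.40 ± 0.12, and fell short in Dll1 by -1.88 ± 0.18 (adjusted p = 1.57e-05) and Dll4 by -0.76 ± 0.17, where 18.7% of all genes were higher and 18.8% lower, 37.5% in all. Notch1 at 0.46 (adjusted p = 0.101), Notch3 at 0.32 (adjusted p = 0.0525), Jag1 at -0.31, Jag2 at -0.42, Hes1 at 0.34 and Hey1 at 0.11 were not called. In a fit to liver and small intestine tissue alone, the calls of Notch4 (adjusted p = 0.136) and Dll4 (0.118) were lost. Hepatocyte markers summed to 16.19 and 17.01 in gallbladder tissue and 17.21 and 17.12 in liver tissue, and their part in these differences was not tested. Leaving out the small intestine tissue array that holds Cpa1 gave Dll4 differences of -0.59 (adjusted p = 0.0117) from gallbladder and -0.48 (adjusted p = 0.0319) from liver, and the Notch4 call of liver against small intestine tissue was lost (adjusted p = 0.0912).

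Genes whose group means ran most like those of a member were found by Pearson's r over the 7 groups, among 6800 or 6801 genes with an SD of group means of at least 0.5. The points share arrays and tissues, so r is a description only. For Notch2 these were Onecut1, a transcription factor of the bile duct and hepatocyte lineage (r = 0.999), Shroom1 (0.986) and Clu (0.97). For Jag1 they were Slc7a11, a cystine transporter (0.994), Slc29a3 (0.984) and Plxna1 (0.984). For Dll4 they were Prr5l (0.983), Samhd1 (0.982) and Mme, a membrane peptidase (0.982). For Dll1 they were Abl1 (0.99), Car12 (0.973) and Zfp827 (0.973), and for Hey1 they were Slfn2 (0.976), Dram1 (0.972) and Ap1s2 (0.959). The closest gene was Terf1 for Notch1 (0.971), Bhlhe41 for Notch3 (0.958), Fabp7 for Notch4 (0.969), Slc23a3 for Jag2 (0.957) and Qtrt1 for Hes1 (0.99).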

How the data were processed

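Total RNA of each sample was read on its own Affymetrix array. The deposited values are log2 signals per probe set, made by the authors with RMA per the submitters' processing notes; the version is not given in the sources used here. RMA equalises array distributions, so a change shared by most genes would not be seen. Detection calls were not used, so it is unknown which values lie at background, and precision is limited by having 2 arrays a group. Of 35556 probe sets, 21789 carried 1 gene symbol, 1621 several and 12146 none; for 999 genes with several probe sets the highest mean was kept. Group means were estimated by limma 3.58.1 (R 4.3.3) from 14 arrays together, leaving 7 residual degrees of freedom (9.91 after moderation). Tests were 2-sided, adjusted by Benjamini-Hochberg over 19938 genes, and called below 0.05. Permuting 2 arrays against 2 exactly cannot give a p below 0.333. The code was tested on simulated data. The members, lists and tests were chosen with earlier results of these data known. All members were named in every comparison of 2 groups, and of the other pathway genes up to 2 called ones in each direction per list. As exceptions, Adam17, Nrarp, Sox9 in liver, the Hes6 levels and the marker genes printed were chosen after their values were seen. Alternatives were quantile normalisation, median centring, leaving out the dimmest 40% of genes, averaging probe sets, a trended robust prior, a replicate block, fits to the compared groups alone and leaving out each array.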

Additional observations from a re-analysis of the deposited data

Results flagged for a closer look

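For 16 results the organoid-tissue change of a member differed between organs by an interaction term of the limma model. All are log2 differences between the changes, with 2 arrays in each of the 4 groups behind them, and causes were not tested.

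Gallbladder against liver gave -0.83 for Notch1 (adjusted p = 0.0412), -0.99 for Jag1 (0.00499), -1.26 for Jag2 (0.00262) and -1.33 for Dll1 (0.00242), which were smaller or more negative changes in gallbladder. Hey1 gave 1.06 (0.00426), a larger change in gallbladder. Epithelial genes are low in liver tissue, with Krt19 at 7.29 and 7.41 there, and their part was not tested.

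Gallbladder against small intestine gave -1.70 for Notch1 (adjusted p = 0.00156), -1.28 for Dll4 (0.00322) and 2.32 for Hey1 (6.82e-05). For Notch1 and Hey1 the organoids moved in opposite directions from tissue in these organs.

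Liver against small intestine gave -0.87 for Notch1 (adjusted p = 0.0366), -1.17 for Dll4 (0.00385), 0.47 for Notch3 (0.0469) and 0.57 for Notch4 (0.0222). It gave 1.16 for Jag1 (0.0017), 1.92 for Jag2 (0.000166), 1.10 for Dll1 (0.00595) and 1.25 for Hey1 (0.00141). Of the 16 calls, 12 were kept whichever array was left out. The calls lost were Notch1 in both comparisons with liver (highest adjusted p = 0.148 and 0.135), and Notch3 (0.156) and Notch4 (0.0856) in liver against small intestine.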

How the results depend on the processing

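Direction was compared only where the main fit or the alternative called a difference. Uncalled differences that changed sign count as kept, such as Dll1 after withdrawal, at -0.02 to 0.14 with 1 array left out. In the settings that keep all arrays, 861 of 910 differences of single members kept their side of the threshold, 27 lost the call, 22 gained it and 0 reversed. Leaving out each array in turn, 1700 of 1820 did so, 86 lost it, 33 gained it and 1 reversed: Hes1 in gallbladder against liver tissue was 0.83 without liver tissue replicate 1 and -0.84 without replicate 2. Of 51 calls in the 10 comparisons, 40 were kept whichever array was left out. A fit to the compared groups alone moved the number of members called to 5 after withdrawal and 6 for gallbladder against liver organoids. It called 8 for gallbladder and 10 for liver against small intestine organoids. Against tissue it called 7 in gallbladder organoids and 4 in liver organoids. In each of the 3 comparisons between tissues it called 2, beside 19.2%, 16.2% and 19.9% of all genes. That fit also moved the share of all genes called, from 35.6% to 58.7% for gallbladder against small intestine organoids. These counts are therefore not read as a result about the members. Leaving out 1 array gave 1 to 3 members after withdrawal, 3 to 4 for gallbladder against liver organoids, 5 to 6 for gallbladder and 8 to 8 for liver against small intestine organoids. It gave 5 to 7, 5 to 7 and 4 to 6 for organoids against tissue in gallbladder, liver and small intestine. Between tissues it gave 2 to 4 for gallbladder against liver, 4 to 5 for gallbladder against small intestine and 3 to 7 for liver against small intestine. For the differences between organs it gave 4 to 6, 3 to 6 and 5 to 8. The counts were 1 after withdrawal without differentiated replicate 1, differentiated replicate 2 or gallbladder organoid replicate 2, 2 for gallbladder against liver tissue without gallbladder tissue replicate 1, and 7 for liver against small intestine tissue without liver tissue replicate 2. For the differences between organs they were 6 for gallbladder against small intestine without gallbladder tissue replicate 2, and 5 for liver against small intestine without liver organoid replicate 1 or either small intestine organoid array. Deviations of same-numbered replicates correlated weakly across genes (21 correlations from -0.104 to 0.139, 2 of them above 0.1). The main fit took the numbers as names only, though weak correlations cannot exclude shared animals or batches. With the replicate block, gallbladder against liver tissue called 3 members in place of 4 (Notch2, adjusted p = 0.058). The other comparisons called as many as without it. The causes were not tested. Dim genes cannot be told from background here.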

Other observations

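Of 6 ubiquitin ligase genes that act on Notch ligands, 3 were higher and 0 lower in gallbladder than in liver tissue, where 20.7% of all genes were higher and 27.4% lower. Against small intestine tissue 1 was higher and 2 lower in gallbladder (20.7% and 24.3%), and 0 were higher and 3 lower in liver (18.7% and 18.8%). Neurl1b read 10.12 and 9.74 in small intestine tissue, 8.39 and 8.61 in gallbladder tissue, and 7.27 and 7.40 in liver tissue. The 3 tissues did not overlap in Neurl1b, and liver fell short of small intestine by -2.59 (limma, adjusted p = 6.61e-07). All organoid arrays lay between 10.06 and 10.53. Neurl3 differed by -3.76 for liver and -1.93 for gallbladder against small intestine tissue (adjusted p = 1.56e-05 and 0.00141) and by 1.83 for gallbladder against liver tissue (adjusted p = 0.00193), and liver organoids exceeded liver tissue by 3.13 (adjusted p = 4.32e-05). Of the 7 other HES and HEY family genes, 0 were higher and 5 lower in gallbladder than in liver tissue (20.7% and 27.4% of all genes), with Hes6 at -1.37 (adjusted p = 0.0403) and Hes3 at -0.68 (adjusted p = 0.000447).

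The array annotation also lists Notch4 together with Sympk on 6 probe sets, which were left out because they name both genes. The probe set with the highest value among them read 10.5 and 7.48 in small intestine tissue and 7.83 and 8.27 in liver organoids. On the other arrays it read 5.1 to 6.7. The probe set that names Notch4 alone read 7.98 and 7.87 in small intestine tissue.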
